A study of Mus musculus with 2 samples.

Results

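Neuronal RNA-binding protein genes were examined for H4K12la, a histone mark in which lysine 12 of H4 carries a lactyl group, in Neuro2a cells, a mouse neuroblastoma line. The set held 10 of the 21887 protein-coding genes on the chromosomes kept: Elavl1, Elavl2, Elavl3, Elavl4, Rbfox1, Rbfox2, Rbfox3, Nova1, Nova2 and Celf4. They were chosen by name, and every peak within the annotated gene or 10 kb on either side was taken. The mark was profiled by CUT&Tag, in which an antibody directs a transposase to the marked chromatin so that the DNA beside it is cut and sequenced. The control cells were given NaCl and the treated cells 25 mM lactate, and all cells were of the same line, grown in DMEM with serum. Values given "with NaCl" and "with lactate" are those of the control and lactate libraries. There was 1 library per group, so no test between groups was possible, and all intervals are 95% intervals of counting error in these libraries.

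RNA-binding proteins of neurons decide which exons are kept in a transcript, how long the transcript lasts and where it is translated. The Hu proteins, encoded by the Elavl genes, bind AU-rich and U-rich stretches and stabilise their target RNAs. Elavl1 is made in nearly all cells, whereas Elavl2, Elavl3 and Elavl4 mark neurons. Rbfox proteins bind UGCAUG beside alternative exons, and Rbfox3 is the antigen known as NeuN, a standard marker of mature neurons. Nova1 and Nova2 regulate splicing through YCAY clusters, and Celf4 binds the RNAs of many synaptic proteins in excitatory neurons.

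Peak calls show where signal stood above an expected background, not how much RNA a gene makes. As a check of the line's label, 12 noradrenergic neuroblastoma genes were read at their ends, meaning within 1 kb of either annotated end. Isl1 and Stmn2 were called in both libraries, Phox2a and Tubb3 with lactate, Hand2 with NaCl, and 7 in neither, where 51.9% of all protein-coding genes had no call. The calls therefore say little about the identity of the line. Th and Syp had no peak within 10 kb in either library. Of 15 markers of other cell types, the myelin gene Mbp had a gene-end peak, with lactate. The lists held 46592 control and 39768 lactate peaks, and the genome-wide background recovered from them was 2.96 and 3.06 reads. The lowest summit pileup called, that is the number of reads stacked at the top of a peak, was 11 reads in each library.

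The peaks at transcription starts can be shown on the promoter sequence. In the RefSeq promoter table (GRCm38.p6) 8 of the 10 genes were matched, all but Rbfox2 and Celf4, to 17 stretches, each running from 250 bases before to 50 bases after a transcription start. The 6 below are those whose start a peak touched or flanked within 1 kb, with 1 kept for each Elavl2 cluster of near-identical starts. They are printed 5′ to 3′ along the gene, and capitals mark the bases under a lactate peak. They are Elavl1 at chr8:4325051-4325350 (minus strand), Elavl2 at chr4:91371991-91372290 and chr4:91376447-91376746 (minus), Elavl4 at chr4:110351862-110352161 (minus), Nova1 at chr12:46818718-46819017 (minus) and Nova2 at chr7:18925638-18925937 (plus).
Elavl1: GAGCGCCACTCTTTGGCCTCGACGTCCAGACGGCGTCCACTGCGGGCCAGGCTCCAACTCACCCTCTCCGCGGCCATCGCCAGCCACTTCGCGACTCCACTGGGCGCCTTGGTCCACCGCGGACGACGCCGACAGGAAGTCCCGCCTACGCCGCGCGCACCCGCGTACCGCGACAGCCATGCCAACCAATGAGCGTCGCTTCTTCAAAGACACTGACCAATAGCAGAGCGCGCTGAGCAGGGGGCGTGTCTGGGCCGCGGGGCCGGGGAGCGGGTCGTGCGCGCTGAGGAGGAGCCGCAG
Elavl2, inner start: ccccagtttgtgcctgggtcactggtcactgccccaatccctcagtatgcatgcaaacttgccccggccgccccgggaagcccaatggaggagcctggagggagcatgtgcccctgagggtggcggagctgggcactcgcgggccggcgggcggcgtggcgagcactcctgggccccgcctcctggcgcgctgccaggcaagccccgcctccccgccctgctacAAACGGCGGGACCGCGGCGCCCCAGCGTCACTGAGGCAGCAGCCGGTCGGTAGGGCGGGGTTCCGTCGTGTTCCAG
Elavl2, second inner start: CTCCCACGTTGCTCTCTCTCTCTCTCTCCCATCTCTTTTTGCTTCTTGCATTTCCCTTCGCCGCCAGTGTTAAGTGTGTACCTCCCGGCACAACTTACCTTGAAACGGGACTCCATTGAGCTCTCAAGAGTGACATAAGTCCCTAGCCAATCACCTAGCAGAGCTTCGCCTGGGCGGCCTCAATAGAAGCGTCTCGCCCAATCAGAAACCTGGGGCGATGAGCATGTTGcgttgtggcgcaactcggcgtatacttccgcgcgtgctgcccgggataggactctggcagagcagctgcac
Elavl4: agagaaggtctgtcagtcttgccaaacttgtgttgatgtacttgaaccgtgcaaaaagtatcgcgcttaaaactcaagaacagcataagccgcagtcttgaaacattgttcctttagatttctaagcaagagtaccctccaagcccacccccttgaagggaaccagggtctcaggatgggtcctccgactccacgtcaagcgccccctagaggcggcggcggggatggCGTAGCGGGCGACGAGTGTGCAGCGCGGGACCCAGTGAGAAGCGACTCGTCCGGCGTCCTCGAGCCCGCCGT
Nova1: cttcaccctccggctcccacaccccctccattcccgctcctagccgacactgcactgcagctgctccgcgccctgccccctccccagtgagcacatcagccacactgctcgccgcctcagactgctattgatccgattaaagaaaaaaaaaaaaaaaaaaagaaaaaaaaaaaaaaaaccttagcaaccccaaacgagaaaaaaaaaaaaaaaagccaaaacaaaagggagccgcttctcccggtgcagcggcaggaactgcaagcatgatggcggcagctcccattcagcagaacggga
Nova2: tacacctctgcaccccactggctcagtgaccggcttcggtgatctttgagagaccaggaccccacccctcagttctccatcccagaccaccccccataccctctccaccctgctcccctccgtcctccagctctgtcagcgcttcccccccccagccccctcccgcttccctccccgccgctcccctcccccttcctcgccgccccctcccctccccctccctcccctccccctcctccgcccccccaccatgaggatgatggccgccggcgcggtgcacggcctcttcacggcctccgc

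The Elavl1 stretch lay under a peak over all 300 bases in both libraries. At the inner Elavl2 start the control peak covered 81 bases and the lactate peak 76, and at the second inner start the lactate peak covered 229 and no control peak was called. At Elavl4 the lactate peak covered the last 72 bases, which include the start, and the control had no peak. Neither Nova stretch met a peak in either library. Over all 21263 promoter stretches of protein-coding genes, 23.7% met a control peak and 37.9% a lactate peak, with 21.9% meeting both, 16% a lactate peak alone and 1.83% a control peak alone.

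The stretches that met a lactate peak were rich in CG dinucleotides. Elavl1 held 39, the inner Elavl2 start 27, the second inner start 18 and Elavl4 23, against a median of 13 over all stretches. Nova1 held 14 and Nova2 17 with no peak on them, and Elavl3 held 29, so CG count did not separate the stretches under a peak from the rest. The motif CCAAT, searched on both strands, was found 2 times in Elavl1, at positions -65 and -34 from the start base, and 2 times in each of the Elavl2 stretches shown. It was not in the Elavl4, Nova1 or Nova2 stretches, and 38.2% of all stretches hold it. GGGCGG, the GC box, was found 4 times at the inner Elavl2 start, 1 time at the second and 2 times in Nova2, and 46.2% of all stretches hold it. Stretches with no peak on them held these motifs too, as with 2 GC boxes and 1 CCAAT at the Elavl3 start and CCAAT at each inner Elavl4 start. Of the stretches shown, CANNTG was found in Nova1 and in each of the Elavl2 ones (69% of all stretches). It was also in stretches not shown that met no peak, among them those of Elavl3, Rbfox3 and each inner Elavl4 start. TATAAA, at position -33 of the Elavl3 start, was in 12.6% of all stretches, and TGACGTCA was in none of the members' stretches and in 2.23% of all. No 2 of these motifs had overlapping matches in the members' stretches.

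**Figure D1:**
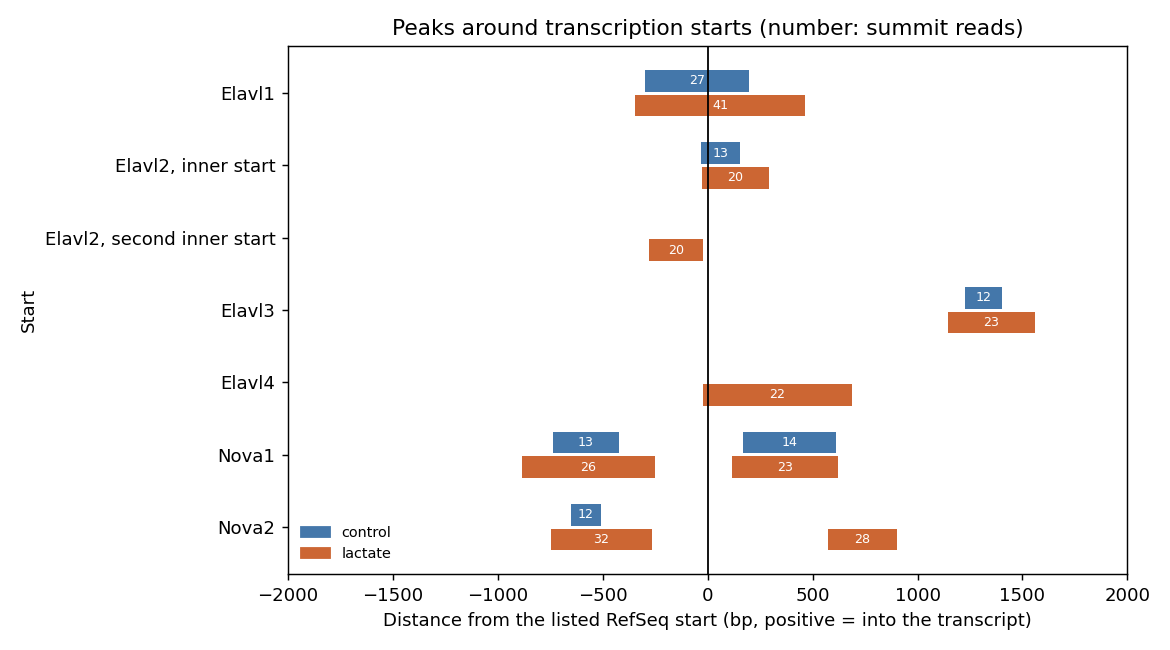
Peaks near 7 listed RefSeq starts, drawn as bars by distance from the start in bp (positive is into the transcript), with the summit reads written on each bar, control in blue and lactate in orange. Peaks cross the start at Elavl1 and the inner Elavl2 start in both libraries and at Elavl4 with lactate. They lie on both sides of the listed Nova1 start in both libraries, and the upstream ones cover the annotated 5′ end.

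Across the 10 genes the control list held 42 peaks and the lactate list 39, and every one of the 10 genes had at least 1 peak in each library. Of all protein-coding genes, 59.3% had a control peak and 66.8% a lactate peak in the same window, 52.2% in both. The members' windows differ widely in length, and that of Rbfox1 measures 1547.7 kb. The members held 1.3 control and 1.21 lactate peaks per 100 kb, against 2.18 and 2.64 over the windows of all protein-coding genes together. Without Rbfox1 the densities were 1.84 and 2.2, so that gene sets both the order of the libraries and much of the distance from all genes. More lactate than control peaks were called at Elavl2, Elavl3, Elavl4, Rbfox3, Nova2 and Celf4, and fewer at Elavl1, Rbfox1, Rbfox2 and Nova1. Most peaks lay in gene bodies, 34 with NaCl and 28 with lactate, with 5 and 7 at gene ends and 3 and 4 in the flanks.

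**Figure D2:**
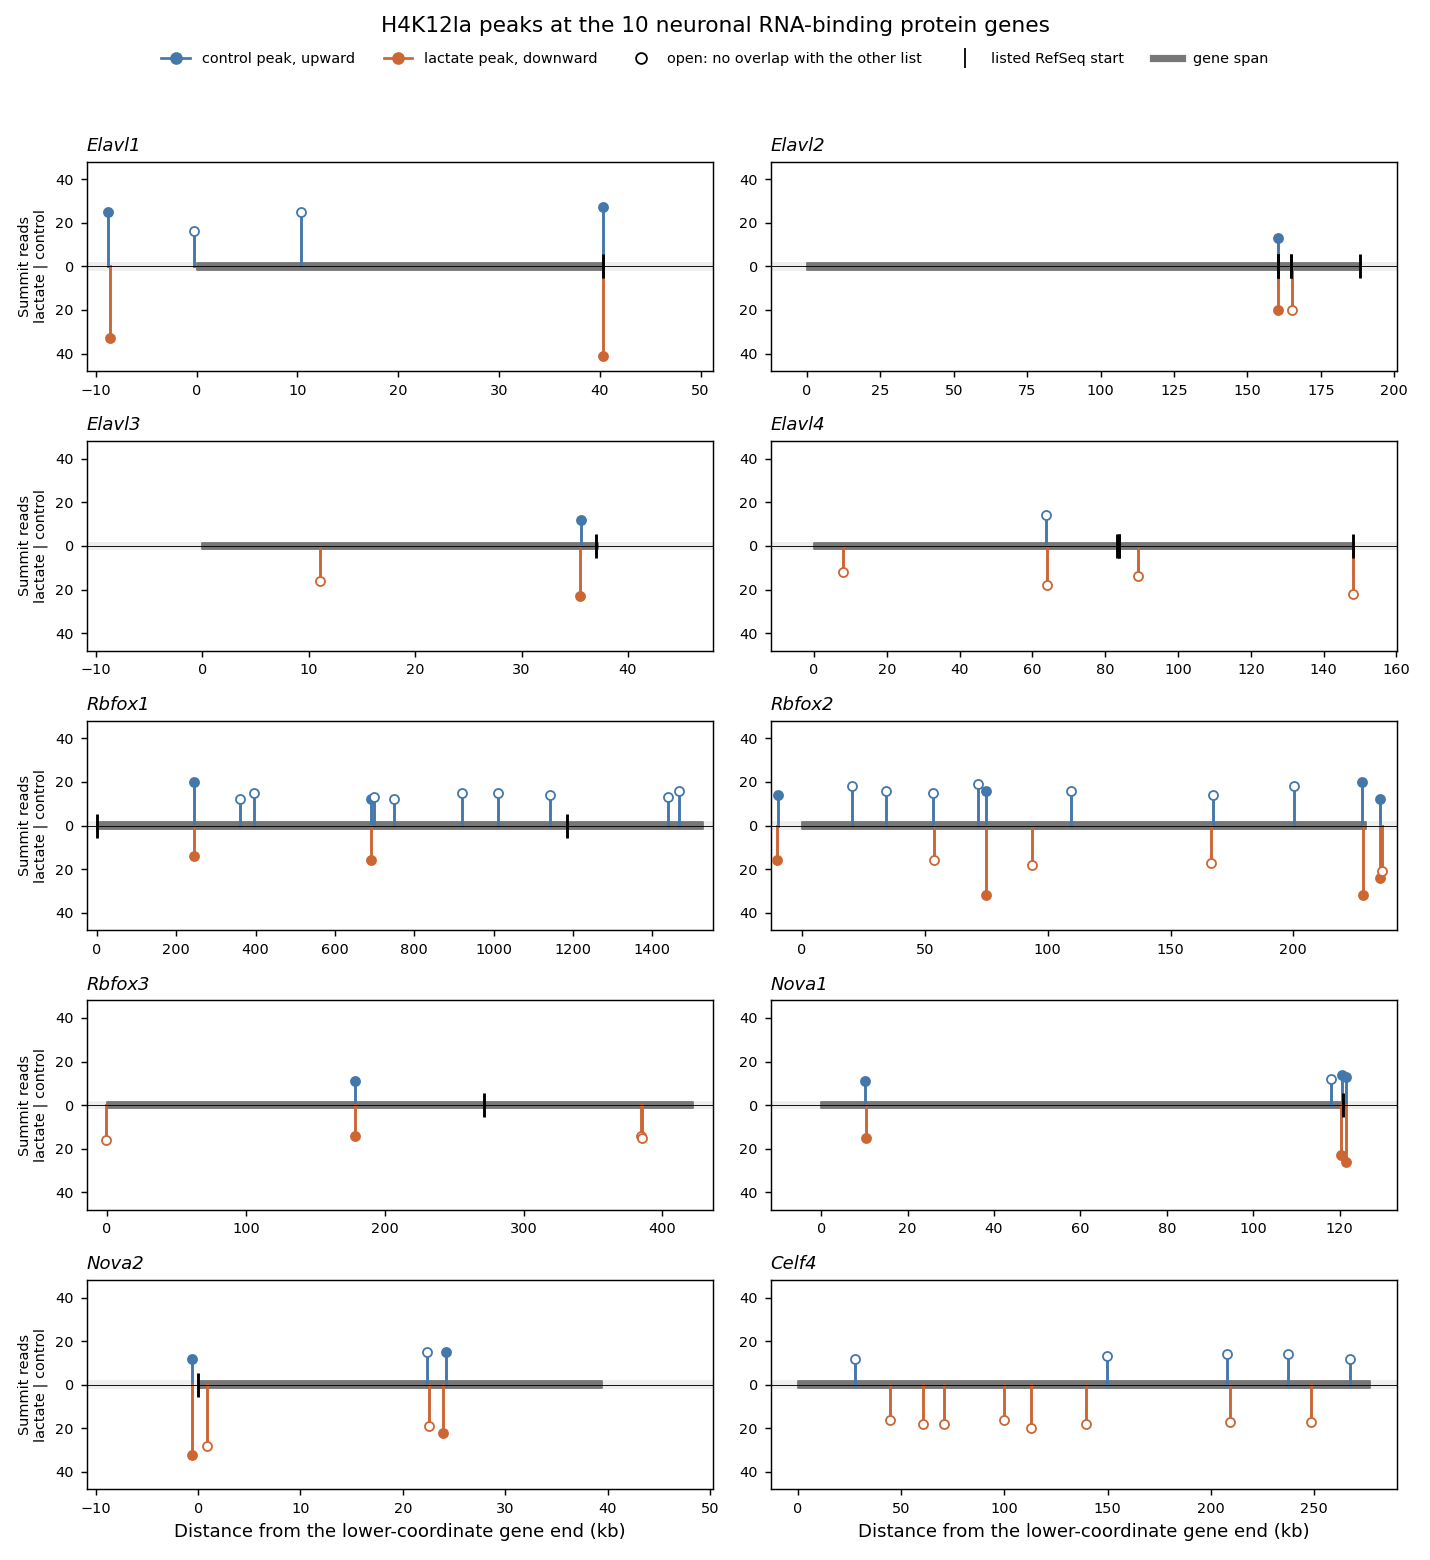
Every peak of the 10 genes by the distance of its summit from the lower-coordinate gene end (kb), with control peaks drawn upward and lactate peaks downward to a height of their summit reads. Filled points overlap a peak of the other list and open points do not. Grey bars are gene spans and black ticks listed starts. Elavl1, Elavl2, Nova1 and Nova2 have a peak of both libraries at or beside a listed start, while Rbfox1 and Celf4 carry peaks scattered along the body.

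Gene-end peaks were called for 3 members with NaCl (32% of all protein-coding genes had one) and for 5 with lactate (44.8% of all). Elavl1, Nova1 and Nova2 were called in both (28.6% of all genes). Elavl4 and Rbfox3 were lactate-only calls (16.2%), no member was a control-only call (3.34%), and the other 5 had no call (51.9%). These shares are near the background. The gene-end count understates Elavl2, whose peaks sit on starts inside the annotated span, and credits Rbfox3 with a peak of a neighbour, as described below.

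Among the Hu genes, Elavl1 had the highest summits of the set. Its peak across the start held 27 reads with NaCl (17.8 to 39.3) and 41 with lactate (29.4 to 55.6), and was 495 bp and 808 bp wide. The lactate over control ratio was 1.52 (0.912 to 2.57), an interval that includes no difference. This peak also lies within 1 kb of an end of Ccl25, a chemokine gene, so it cannot be credited to Elavl1 alone. A pair in the flank, at an end of Timm44, a mitochondrial import factor, held 25 control and 33 lactate reads. The control alone had a peak just beyond the 3′ end, of 105 bp and 16 reads, and another in the body, of 197 bp and 25 reads. The local background, the number of reads expected at the summit, was 5.24 to 8.30 reads at the control peaks and 8.48 to 12.54 at the lactate peaks. It stood above the genome-wide background at each Elavl1 peak.

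Elavl2, which encodes the neuronal protein HuB, spans 189 kb, and all of its peaks lay within 22 bp of a start that RefSeq lists inside that span. At the inner start the control peak was 185 bp wide with 13 reads (6.92 to 22.2) and the lactate peak 317 bp wide with 20 reads (12.2 to 30.9), a ratio of 1.54 (0.728 to 3.37). At the second inner start, farther toward the 5′ end of the gene, the lactate library had a peak of 259 bp with 20 reads and the nearest control peak was 4446 bp away. The outermost start had no peak in either library.

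Elavl3, which encodes HuC, had a peak in both libraries inside the gene, beginning 1226 bp past the start with NaCl and 1143 bp past it with lactate. It held 12 reads over 174 bp with NaCl (6.20 to 21) and 23 reads over 416 bp with lactate (14.6 to 34.5), a ratio of 1.92 (0.915 to 4.23). The lactate library also had a peak of 16 reads farther into the body. The local background at the shared peak was 3.10 reads with NaCl and 7.14 with lactate.

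Elavl4, which encodes HuD, a protein that promotes neurite outgrowth, had 1 control and 4 lactate peaks, and none of them overlapped. The lactate peak at its 5′ end ran over 708 bp, with 22 reads (13.8 to 33.3), a fold of 5.66 over local background and a −log10 q of 8.63. That fold was higher than at any other peak of the 10 genes, and the nearest control peak was 83667 bp away. Local background with lactate was 3.06 reads there, equal to the genome-wide value of that library. Control peaks on a like background were called from 11 reads, but the control background at this place is not known. In the body, a control peak of 14 reads (7.65 to 23.5) and a lactate peak of 18 reads (10.7 to 28.4) lay 129 bp apart without touching. The other lactate peaks held 12 and 14 reads. The inner Elavl4 starts carried no peak, the nearest being a lactate peak 5025 bp away.

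Rbfox1, at 1528 kb the longest of the genes, had 11 control and 2 lactate peaks, all in its body. Both lactate peaks overlapped control peaks. At 244.5 kb from the 5′ end the control peak was 573 bp wide with 20 reads (12.2 to 30.9) and the lactate peak 145 bp wide with 14 reads (7.65 to 23.5). This was the 1 pair of 16 in which the control had more reads, with a ratio of 0.7 (0.327 to 1.46). The second pair held 12 control and 16 lactate reads. The 9 control peaks with no partner were 107 to 144 bp wide with 12 to 16 reads, close to the lowest callable pileup, and 57012 bp or more from the nearest lactate summit in all but 1 case. The peak nearest to a listed start was 42361 bp away.

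An excess of control peaks was common among long genes. Of the 227 protein-coding genes of at least 500 kb, 146 had more control and 60 more lactate peaks, and 76 had an excess of 9 or more control peaks, the excess seen at Rbfox1. Their windows held 2840 control and 1370 lactate peaks, or 1.44 and 0.694 per 100 kb, against 0.711 and 0.129 at Rbfox1. Over all protein-coding genes the order was opposite, with more lactate peaks at 8385 and more control peaks at 4046. Without Rbfox1 the other 9 members held 31 control and 37 lactate peaks.

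Rbfox2, the family member made in many tissues besides brain, had 11 control and 8 lactate peaks, with 4 overlapping pairs. The pair near its higher-coordinate end was 333 bp wide with 20 reads with NaCl (12.2 to 30.9) and 843 bp wide with 32 reads with lactate (21.9 to 45.2), the widest of the 81 peaks. In the body, 74.9 kb from the lower-coordinate end, summits 2 bp apart held 16 control reads (9.15 to 26) and 32 lactate reads (21.9 to 45.2), a ratio of 2 (1.07 to 3.9). A pair in the flank beyond the higher-coordinate end, at an end of the gene Gm41352, held 12 and 24 reads. A further pair in the opposite flank held 14 and 16 reads. The 7 control peaks with no partner held 14 to 19 reads and the 4 lactate peaks with none 16 to 21, and 1 of each lay 171 bp apart. Every Rbfox2 peak stood on a local background above the genome-wide one, at 3.04 to 5.70 reads with NaCl and 4.34 to 8.38 with lactate. Raised local background was found at 78.6% of control and 83.6% of lactate peaks on chromosome 15, which carries Rbfox2, against 64.7% and 78.4% of all peaks. Its part in the number of Rbfox2 peaks was not tested.

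Rbfox3 had 1 control and 4 lactate peaks. The shared peak in the body held 11 reads over 158 bp with NaCl (5.49 to 19.7) and 14 reads over 195 bp with lactate (7.65 to 23.5), with a ratio of 1.27 (0.537 to 3.1). A pair of lactate peaks farther toward the 5′ end held 14 and 15 reads, and the nearest control peak was 205679 bp away. The peak counted at the gene's 3′ end, with 16 lactate reads, lay outside Rbfox3 and inside Engase, a neighbouring gene for a glycan-cleaving enzyme, at an end of that gene. The peak nearest to the Rbfox3 start that RefSeq lists was 92823 bp away. 

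At Nova1 a peak lay on each side of the listed start in both libraries. The annotated span runs past that start to chr12:46819480, and the upstream peak covered this 5′ end in both libraries. The downstream peak held 14 control reads (7.65 to 23.5) over 444 bp and 23 lactate reads (14.6 to 34.5) over 508 bp. The peak upstream held 13 control reads (6.92 to 22.2) over 316 bp and 26 lactate reads (17 to 38.1) over 634 bp, a ratio of 2 (0.991 to 4.24). The stretch between them, which holds the listed start but not the annotated 5′ end, was 589 bp with NaCl and 364 bp with lactate. It includes runs of A in the printed Nova1 sequence, and whether reads map there was not tested. A control peak of 12 reads in the body had no partner. Another pair, 10.3 kb from the 3′ end of Nova1, held 11 control and 15 lactate reads, over 388 bp and 649 bp.

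At Nova2 the upstream peak held 12 reads over 142 bp with NaCl (6.20 to 21) and 32 reads over 483 bp with lactate (21.9 to 45.2). The ratio of 2.67 (1.34 to 5.69) was the highest of the 16 pairs, and the control count was close to the lowest call of 11 reads. Fold over local background was 3.07 with NaCl and 3.78 with lactate. A peak inside the gene, 330 bp wide with 28 reads (18.6 to 40.5), was called in the lactate library alone, so that the Nova2 start had a peak on each side, 837 bp apart, in that library and an upstream peak alone with NaCl. The Nova2 body held a pair with 15 control and 22 lactate reads, and a control and a lactate peak 114 bp apart with 15 and 19 reads. Local background was 3.24 to 3.82 reads at the control peaks of Nova2 and 7.14 to 7.74 at the lactate peaks. Of 7 Nova peaks in each library 5 overlapped the other list, or 71.4% (29.0% to 96.3%), an interval that includes the shares over all peaks, 37.7% with NaCl and 43.4% with lactate. The shares were 57.1% and 40% at the Hu genes and 30.4% and 50% at the Rbfox genes.

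Celf4 carried 5 control and 8 lactate peaks, all in its body on chromosome 18, and not 1 of them overlapped a peak of the other list. The share of lactate peaks overlapping was 0 of 8, with an exact interval of 0 to 36.9%, and of control peaks 0 of 5, with 0 to 52.2%. Over all peaks 37.7% of control and 43.4% of lactate peaks overlapped the other list, so the lactate interval lies below that list's share while the control interval includes its own. Peaks of 1 gene share their surroundings, and Celf4 is 1 of 10 genes looked at. The closest peaks of opposite libraries were 1516 bp apart. A control peak of 12 reads also lay at an end of the gene Gm32825, and lactate peaks of 16 and 20 reads overlapped the gene Gm3227. Control peaks held 12 to 14 reads over 118 to 200 bp, and lactate peaks 16 to 20 reads over 105 to 530 bp. None of the Celf4 peaks reached a −log10 q of 5, and none lay within 1 kb of an end of the gene. Of all peaks 13.2% with NaCl and 24.7% with lactate reached that value, so the overlap shares over all peaks include stronger peaks than those of Celf4.

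**Figure D3:**
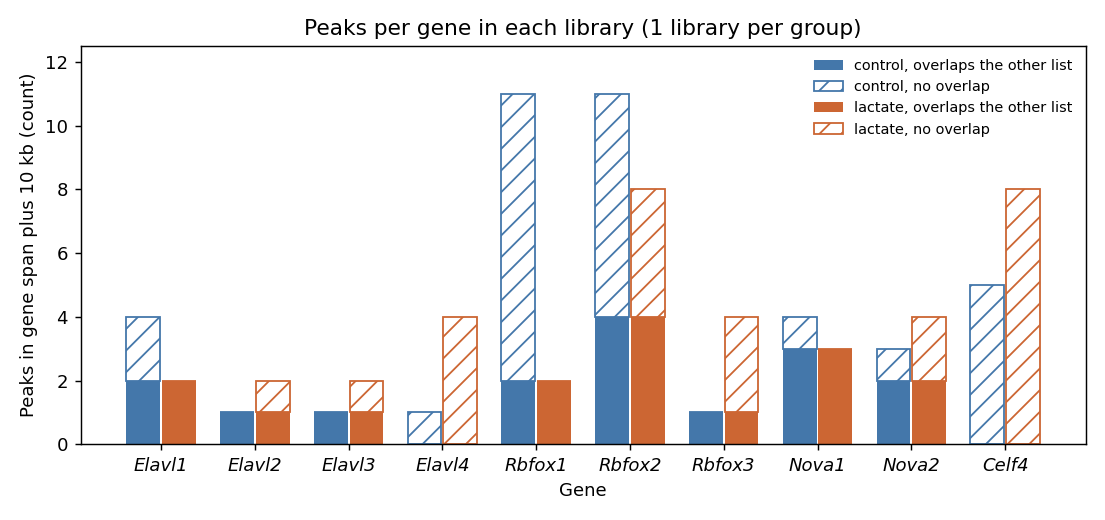
Number of peaks in the gene span plus 10 kb for each gene, control in blue and lactate in orange, with filled bars for peaks that overlap the other list and hatched bars for those that do not. Rbfox1 has 11 control and 2 lactate peaks, and the 5 control and 8 lactate peaks of Celf4 have no overlap.

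Over the 10 genes, 16 control and 16 lactate peaks overlapped, as 16 pairs. This was 38.1% of the members' control peaks (23.6% to 54.4%) beside 37.7% of all control peaks, and 41.0% of their lactate peaks (25.6% to 57.9%) beside 43.4% of all, so the members did not stand apart in this. Shared member peaks had median summits of 13.5 control and 23 lactate reads and median widths of 190 bp and 450 bp. Member peaks with no partner had medians of 14.5 and 17 reads and of 144 bp and 219 bp. Taking all the members' peaks, widths had a median of 150 bp with NaCl and 279 bp with lactate, beside 192 bp and 207 bp over the whole lists. The members' peaks covered 8756 bp with NaCl and 13098 bp with lactate.

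Within the pairs, the lactate summit had more reads in 15 of 16 (70.3% of all overlapping pairs) and the lactate peak was wider in 14 of 16 (63% of all pairs). The median ratio of lactate to control reads was 1.53, against 1.25 over all 17922 pairs. Fold went another way, being higher with lactate in 7 of 16 pairs (45.2% of all). Local background was higher with lactate in 15 of 16 pairs (83.3% of all), with medians of 3.17 reads with NaCl and 5.73 with lactate. Summit reads and local background were thus both higher with lactate at most of these pairs. Set against the median read ratio of 1.25 over all pairs, the counting interval of the upstream Nova2 ratio (1.34 to 5.69) lay above it and the intervals of the other 15 pairs included it, with no adjustment over the 16. The pairs come from 8 genes and 1 library per group and are not replicates.

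**Figure D4:**
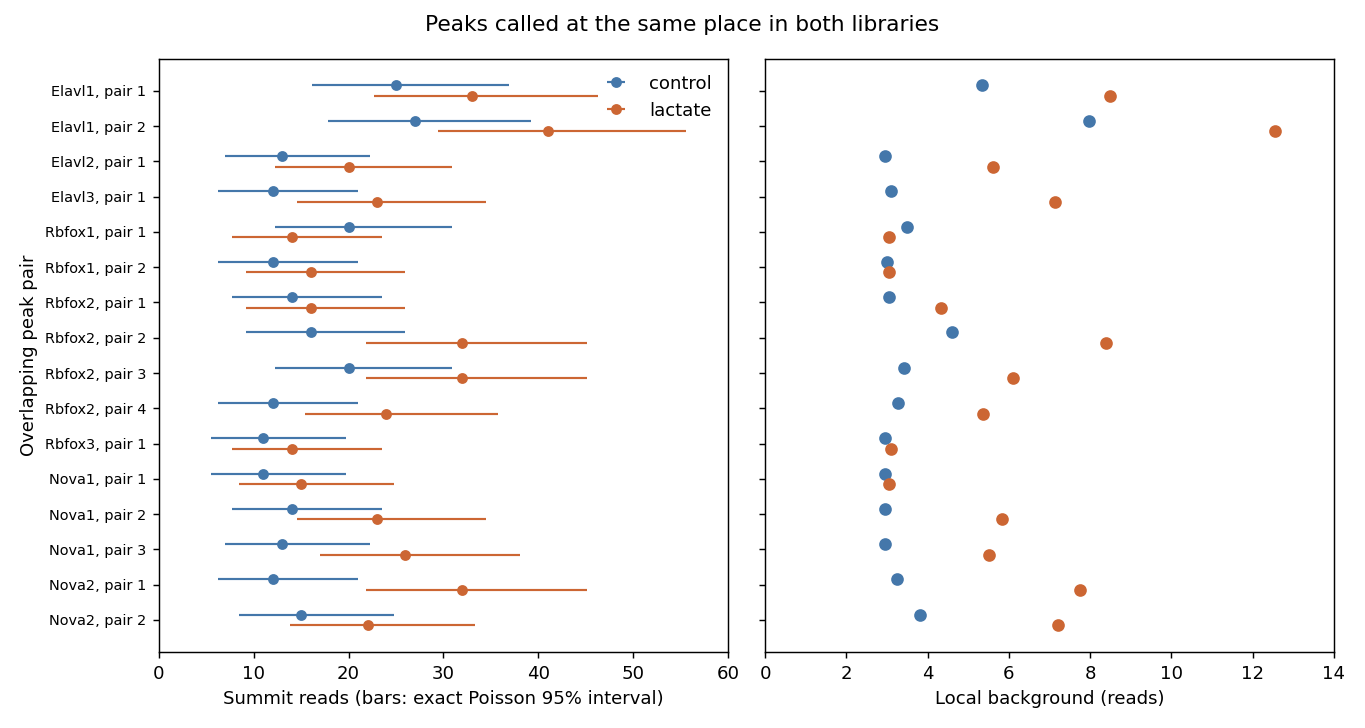
Left, summit reads of the 16 overlapping pairs, with NaCl in blue and lactate in orange, with exact Poisson 95% intervals. Right, the local background in reads at the same peaks. The lactate points lie to the right of the control points in 15 of 16 pairs in each panel, with the exception of the first Rbfox1 pair.

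With the −log10 q held to 5 or more, the members kept 3 control peaks (7.14%, beside 13.2% of all control peaks) and 10 lactate peaks (25.6%, beside 24.7% of all lactate peaks). The 3 control peaks lay in the Elavl1 flank, in the Rbfox1 body and near the higher-coordinate end of Rbfox2. The lactate peaks were 2 each at Elavl1, Elavl4 and Nova2, 3 at Rbfox2 and 1 at Nova1.

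Related RNA-binding protein genes gave a wider view. Of 36 such genes, 13 had a gene-end peak in both libraries and 10 had none, while 12 were lactate-only calls and 1 was a control-only call. The shares over all protein-coding genes were 28.6%, 51.9%, 16.2% and 3.34% in the same order. Among the 12, high folds were found at Fmr1, the fragile X gene, with 19 reads, Qk, a regulator of myelin RNAs, with 22, Celf6 with 19, Ptbp3 with 21 and Fxr2 with 18. The control-only gene, named after its values were seen, was Celf2, with 12 reads. Of those called in both, Ptbp2, the neuronal polypyrimidine tract binding protein, held 34 control and 39 lactate reads, Pum2 18 and 36, and Msi1, a marker of neural progenitors, 15 and 24. With NaCl 14 of the 36 related genes and 3 of the 10 members were called at an end, beside 32% of all genes. With lactate 25 and 5 were called, beside 44.8% of all.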

How the data were processed

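The submitters' processing notes name the tools BWA, deepTools and MACS2 and the build mm10. Of their versions, the calling settings and any control library or spike-in, no account is given in the sources used. The authors deposited 1 MACS2 peak list per library. The deposited fold is the ratio of summit pileup to local background, and the deposited −log10 p, −log10 q and score belong to that summit. Whether local background came from the same library or from a control library is not stated. The lowest −log10 q was 1.30.

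Only peaks on the autosomes, X and Y were used, which left out 6 lines per list. Summit reads and local background were solved from fold, (pileup + 1)/(background + 1), and the Poisson −log10 p. A whole-number pileup was found within 0.001 for 46591 of 46592 control and all 39768 lactate peaks, and for 100% of 5000 simulated peaks. The read totals are not in the lists.

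Overlap meant at least 1 bp, checked with bedtools 2.31.1. Genes, starts and promoters came from RefSeq, GRCm38.p6, the assembly mm10 names. A gene-end window was 1 kb on either side of each annotated end. Summit reads carry exact Poisson 95% intervals, shares Clopper-Pearson ones, and ratios exact binomial ones. Raised background meant a local value above the genome-wide one by more than the step of 0.02 reads. The members, related genes and markers were chosen with earlier results of these data known. All members were named, with up to 6 related genes called in 1 library alone and up to 4 called in both, by fold, and some that the rule takes are not reported here. The comparison with genes of at least 500 kb was added after seeing the data. Python 3.11.15, numpy 2.4.6, pandas 2.3.3 and scipy 1.17.1 were used.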

Additional observations from a re-analysis of the deposited data

How the results depend on the processing

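Of 40 values recomputed for 8 counts and shares under other settings, 31 stayed within 1.5 times the reported count or inside the interval of the reported share. Keeping peaks with a −log10 q of at least 5 left 3 control and 10 lactate peaks at the members, 0 members and 3 related genes with a control gene-end peak, and overlap shares of 66.7% of control and 20% of lactate member peaks. The order of the total therefore turned from 42 control and 39 lactate peaks. Lists of equal length also turned it, to 31 and 39, while the gene span with no flank gave 37 and 33. Requiring the overlap to cover at least 50% of both peaks lowered the shares to 19% and 20.5%. A window of 3 kb raised the members with a control gene-end peak from 3 to 5. At listed starts, an alternative added after seeing the data, 4 members had a control call and 5 a lactate call. Starts, and with them the strand, were listed for 8 members and 27 of the related genes. At the 5′ end alone, 3 members and 11 related genes had a control call, and 4 and 18 a lactate call. No paired analysis was possible because each group has 1 library, and no replicate could be left out for the same reason.

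Low read numbers limit these results, since 65 of the 81 member peaks held 20 reads or fewer, against a lowest called pileup of 11 in each list. Where local background was higher, the lowest call was higher too. At a background like the 12.54 reads of the lactate peak at the Elavl1 start, the lowest control call held 27 reads. Signal below the lowest call for its background is not seen in these lists, so a call in 1 library alone does not show absence in the other.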
